A study of Mus musculus with 6 samples.

Results

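The S100 genes encode small calcium-binding proteins with paired EF-hand motifs, most of which work as dimers inside cells and some of which are released as signals. The 10 genes described here, S100a8, S100a9, S100a1, S100a4, S100a6, S100a10, S100a11, S100a13, S100a16 and S100b, were chosen by their symbols from the 54532 genes listed in a table of femoral RNA levels. Each symbol matched 1 row. The table lists 7 further S100 genes, which are given more briefly below, and S100pbp, which encodes a binding protein of S100 proteins and is no family member.

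The mice were ovariectomized (OVX), a model of bone loss after loss of the ovaries, and had saline as the vehicle. Their genotype is given as wild type, and the sources used here give neither strain nor age. The labels list 3 such samples and 3 from mice treated with zingerone, which is found in cooked ginger; the zingerone labels do not name the surgery. It was given by mouth every day over 8 weeks, at a dose of 100 mg/kg. Only the OVX samples could be tied by name to columns of the table, so the values below come from 3 OVX libraries, called 1, 2 and 3 after their replicate numbers, and the response of S100 genes to zingerone was not analysed here. Titles carry 8, 9 and 10 weeks for these replicates, while the treatment text gives 8 weeks. Each library thus has its own title week, and a difference between libraries cannot be told apart from one between title weeks. Other label fields name RAW264.7, a mouse macrophage-like line, yet the bone matrix genes Col1a1 and Bglap stood at no less than 364 and 259 FPKM in any library. The design text calls the samples of a group biological replicates, but no label names separate animals. The p-values below thus measure only whether these libraries depart from counting noise, and such differences may be technical.

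In bone marrow, S100a8 and S100a9 are known as the subunits of calprotectin, which fills the cytosol of neutrophils, binds zinc and manganese and signals through Tlr4 and Ager. S100a10 is the light chain that holds annexin A2 at membranes, and S100a11 binds annexin A1. S100a1 is a regulator of calcium cycling in muscle, S100b is abundant in glia, cartilage and adipocytes, and S100a4 and S100a6 are known from fibroblasts and myeloid cells.

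Promoter sequences from RefSeq (build GRCm38.p6, the release of mm10) were available for 9 members. The windows that held TATAAA are shown because they include both calprotectin genes, although in S100a9 the letters do not lie before the start. Windows run from 250 bases before to 50 after an annotated start and were searched on the printed strand for TATAAA. The motif was found in 3 members, and 8.32% of all 32851 windows held it. Each line gives 30 bases, 5′ to 3′ on the gene's strand, with the motif in capitals.
S100a8, chr3:90669029-90669058, plus strand: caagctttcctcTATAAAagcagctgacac
S100a9, chr3:90695704-90695733, minus strand: caaggagctgccTATAAAtactgggcttac
S100a4, chr3:90603727-90603756, plus strand: ggcctggcagggTATAAAtaggtcagattg

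In S100a8 and S100a4 the motif began 30 and 31 bases before the RefSeq start. For S100a8 that start is 90669071, whereas the gene listed with the FPKM starts at 90668978, so its span includes the motif. In S100a9 the motif began at the first base of the annotated start, so the same letters lie at another distance there. Between 40 and 11 bases before the start, the motif was present in 2 of the 9 members and in 2.08% of all windows. The other promoters lacked these letters on the printed strand. GGGCGG, searched on both strands of the 250 bases before the start, was present in S100a9 and S100a11 and in 32.7% of all windows. The S100a13 and S100a11 promoters held 13 and 11 CpG dinucleotides in those bases. S100a1 held 8, S100a6 held 3, S100a8, S100a9, S100a4 and S100b held 2 each and S100a16 held 1, and the median over all windows was 6. A motif match is a description of the sequence and shows no binding.

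Mean levels ran from 10768 FPKM for S100a9 to 6.08 FPKM for S100b and 0.679 FPKM for S100a4, the last of which rests on few reads and on a gene model that overlaps another. The FPKM scale (reads scaled by gene length and by 1 total per library) allows levels of genes of unlike length to be set side by side. The totals behind the deposited FPKM were 1.015, 0.993 and 0.997 times the reads of all listed genes in libraries 1, 2 and 3. They are thus not plain sums of those reads. S100a9 was the third and S100a8 the fourth highest of all listed genes, and S100a4 ranked 15244. By mean FPKM the order was S100a9, S100a8, S100a11, S100a6, S100a10, S100a1, S100a13, S100a16, S100b and S100a4. Of these neighbours, only S100a1 and S100a13 had ranges over the 3 libraries that overlapped. S100a16 and S100b were nearly touching, since the lowest S100a16 value was 9.16 FPKM and the highest S100b value 8.68 FPKM.

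**Figure D1:**
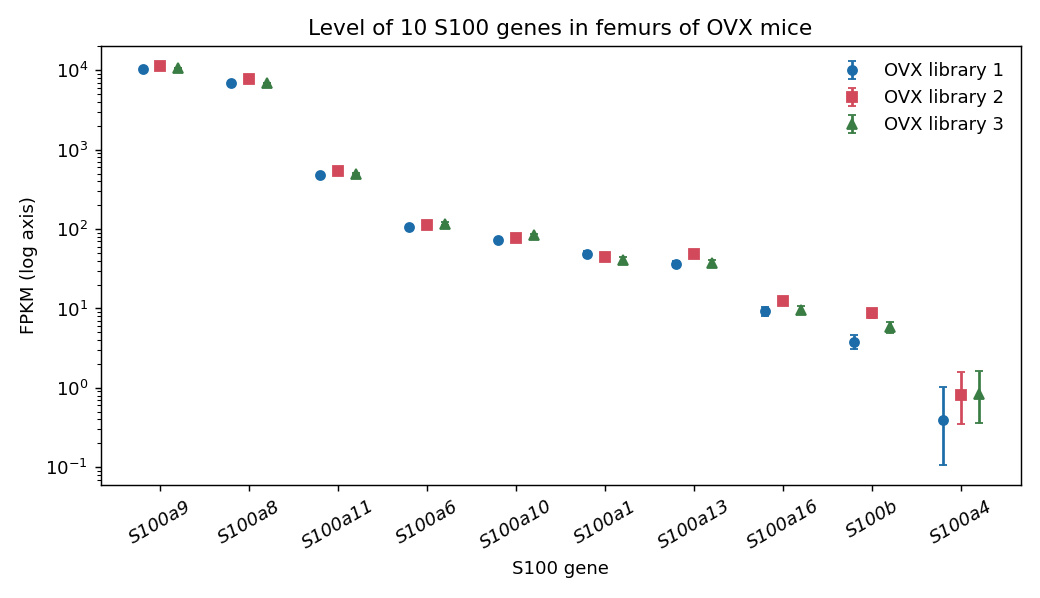
FPKM of the 10 S100 genes (log axis) in OVX libraries 1 to 3, ordered by mean level, with exact Poisson 95% intervals that cover counting error only. S100a9 and S100a8 lie between 6872 and 11284 FPKM in every library, and S100a4 stays below 1 FPKM in all 3.

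S100a9 (ENSMUSG00000056071, mm10 chromosome 3, 90692632 to 90695721, minus strand) had levels of 10271, 11284 and 10747 FPKM (libraries 1, 2 and 3), which rest on 92647, 99227 and 92756 reads. S100a8 (ENSMUSG00000056054, chromosome 3, 90668978 to 90670035, plus strand) stood at 6872, 7870 and 6907 FPKM, from 82416, 92012 and 79248 reads. Both genes were highest in library 2. Together the calprotectin genes took 4.62%, 5.07% and 4.51% of the summed FPKM of all genes, and 1.03%, 1.13% and 1.04% of all reads, since their transcripts are short. They made up 95.8% ± 0.0467 of the summed FPKM of the 10 members (SD, n = 3).

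S100a9 exceeded S100a8 in every library, by 1.49, 1.43 and 1.56 times in libraries 1, 2 and 3. The ratio was 1.49 ± 0.0612 (SD, n = 3). It depends on the listed gene lengths, 522 bases for S100a9 and 694 for S100a8. By reads the excess was smaller, because S100a8 is the longer gene model.

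The calprotectin genes were set against 15 neutrophil markers (Elane, Mpo, Prtn3, Ngp, Ltf, Camp, Lcn2, Mmp8, Mmp9, Retnlg, Ly6g, Csf3r, Cxcr2, Cebpe and Chil3), all of which passed 1 FPKM. Their summed level was 9751, 10287 and 9701 FPKM in libraries 1, 2 and 3, so that S100a8 and S100a9 together were 1.81 ± 0.0522 times as high as the whole list (SD, n = 3). The list was also highest in library 2, though only 8 of its 15 genes were. Ngp, the neutrophilic granule protein and the highest of the list, stood at 3331, 3472 and 3328 FPKM, below S100a8 in each library. In RNA of a whole bone, fewer cells of a type and less RNA per cell cannot be told apart. The part of neutrophil number in the calprotectin values was not tested.

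S100a11 (ENSMUSG00000027907, chromosome 3, 93520488 to 93526287, plus strand) was the third member, at 481, 533 and 496 FPKM from 4248, 4591 and 4191 reads. It was highest in library 2 and took 63.3% ± 0.475 of the FPKM of the 8 members other than calprotectin (SD, n = 3). S100a8 was 14.3 ± 0.418 times as high as S100a11 (SD, n = 3). Of the 462 different 50-base words of its transcript, 190 also occur in the transcript of the processed pseudogene Gm12854. Reads listed for Gm12854 were 88, 109 and 84, and those for another such pseudogene, Gm7665, were 133, 163 and 156. The sources used here do not say how multiply mapping reads were counted, so the S100a11 level is uncertain by reads that could belong to either copy. Apart from S100a4, the other members shared no 50-base word with a transcript of another gene.

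S100a6 and S100a10 had the next levels and differed little between libraries. S100a6, calcyclin (ENSMUSG00000001025, chromosome 3, 90612882 to 90624181, plus strand), stood at 106, 114 and 117 FPKM from 2500, 2618 and 2640 reads. S100a10 (ENSMUSG00000041959, chromosome 3, 93555080 to 93564643, plus strand) stood at 72.1, 76.8 and 83.1 FPKM from 1510, 1568 and 1666 reads. Both were lowest in library 1 and highest in library 3. The Poisson intervals of libraries 2 and 3 overlapped for S100a6 (109 to 118 and 112 to 121 FPKM) and for S100a10 (73.0 to 80.7 and 79.2 to 87.2 FPKM). Against their annexin partners, S100a10 was 1.28 ± 0.118 times as high as Anxa2, and S100a11 was 2.18 ± 0.0949 times as high as Anxa1 (SD, n = 3).

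S100a1 (ENSMUSG00000044080, chromosome 3, 90511034 to 90514392, minus strand) and S100a13 (ENSMUSG00000042312, chromosome 3, 90514435 to 90524581, plus strand), a release partner of Fgf1 and Il1a, lie head to head. Only 42 bases separate their outermost starts in GENCODE M21 (chr3:90514393-90514434). These bases are shown as the stretch that lies upstream of both genes, on the plus strand.
S100a1 to S100a13: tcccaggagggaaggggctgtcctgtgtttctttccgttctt

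The divergent genes had like levels and were highest in different libraries. S100a1 stood at 48.3, 44.1 and 40.9 FPKM from 579, 515 and 469 reads, highest in library 1 and lowest in library 3. S100a13 stood at 36.5, 48.2 and 37.1 FPKM from 451, 581 and 439 reads, and was highest in library 2. S100a13 was thus 0.756, 1.10 and 0.909 times S100a1 in libraries 1, 2 and 3. S100a13 was listed above S100a1 in library 2, where the exact Poisson 95% intervals overlapped (40.3 to 48.0 FPKM for S100a1 and 44.4 to 52.3 FPKM for S100a13). They also overlapped in library 3, so the order of the pair is within counting error in both. Skeletal muscle markers, 15 genes of which Tnnc2 was at 0 in all libraries, summed to 1823, 159 and 1120 FPKM, an 11.5-fold range. Library 1 was highest for the muscle sum and for S100a1, and library 2 was lowest for the muscle sum. The S100a1 Poisson interval of library 1 (44.4 to 52.4 FPKM) overlapped those of libraries 2 and 3. For S100a1 the Poisson intervals of libraries 2 and 3 overlapped (40.3 to 48.0 and 37.3 to 44.7 FPKM), so which was lower is within counting error. The part of muscle in the S100a1 values was not tested.

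S100a16 (ENSMUSG00000074457, chromosome 3, 90537254 to 90543151, plus strand) stood at 9.16, 12.4 and 9.58 FPKM from 256, 337 and 256 reads. S100b (ENSMUSG00000033208, chromosome 10, 76253853 to 76261159, plus strand), the only member outside chromosome 3, stood at 3.78, 8.68 and 5.79 FPKM from 97, 217 and 142 reads. Both were highest in library 2, and S100b had the widest spread of the tested members, with the highest library 2.29 times the lowest. A ratio this wide or wider was found in 7.39% of all tested genes.

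Markers of several cell types were, like S100b, highest in library 2. The 15 chondrocyte markers summed to 84.7, 879 and 92.1 FPKM in libraries 1, 2 and 3, and all 15 were highest in library 2. Among them Col2a1 stood at 17.1, 165 and 12.4 FPKM, while Snorc was at 0 in library 1. The 9 adipocyte markers summed to 183, 347 and 118 FPKM, with 8 of 9 highest in library 2 and Lep at 0 in library 3. Osteoblast and osteoclast lists, of 8 genes each, summed to 1893, 4728 and 1443 FPKM and to 398, 1107 and 833 FPKM. All 8 genes of each were highest in library 2, Mmp9 standing in both the osteoclast and the neutrophil list. The 8 Schwann cell markers, of which 4 passed 1 FPKM, summed to 30.7, 20.7 and 26.7 FPKM, with 6 of 8 lowest and 1, Gfra3, highest in library 2. Their defining transcription factor Sox10 was at 0.341, 0 and 0.159 FPKM and Gfra3 at 0, 0.179 and 0.152 FPKM, levels too low to order the libraries. S100b was higher in library 3 than in library 1, an order shown by the chondrocyte and osteoclast sums. The sum of the 9 fibroblast and stroma markers also showed it (317, 382 and 338 FPKM, with 3 of 9 genes highest in library 2). The adipocyte, osteoblast and Schwann cell sums did not show it. Within the chondrocyte list the genes were split between libraries 1 and 3. Chad stood at 2.96 and 23.1 FPKM there and Comp at 4.17 and 14.2 FPKM. The other way went Col11a2 (43.0 and 27.7 FPKM), Col2a1 (17.1 and 12.4 FPKM) and Col11a1 (16.2 and 7.75 FPKM). The part of these cell types in the S100b values was not tested.

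**Figure D2:**
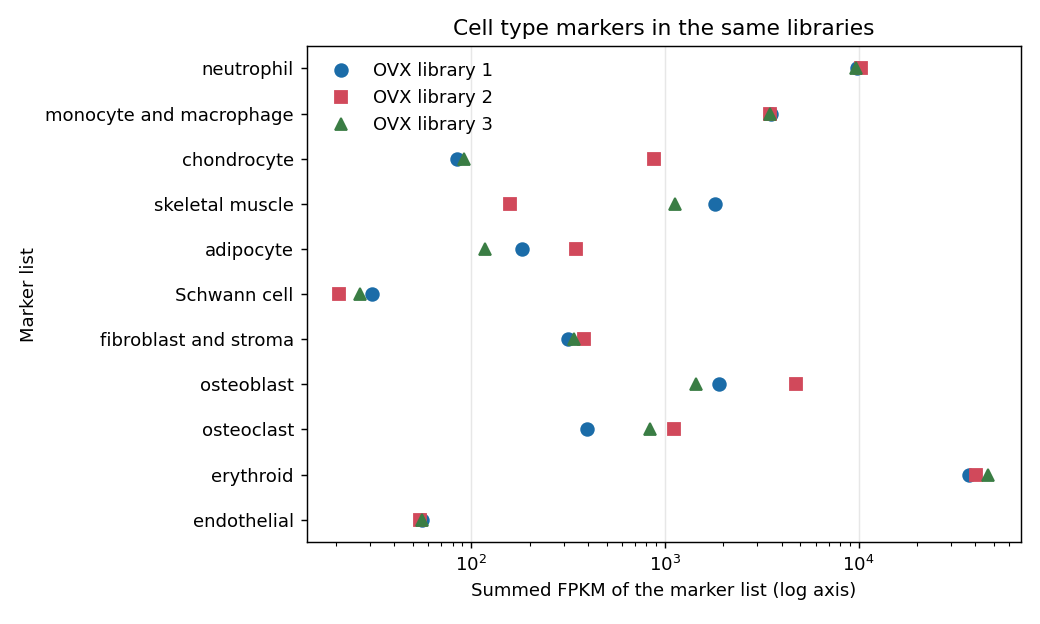
Summed FPKM (log axis) of 11 marker lists in OVX libraries 1 to 3. Chondrocyte markers are at 879 FPKM in library 2 and below 100 FPKM in the others, muscle markers are lowest in library 2, and neutrophil markers stay between 9701 and 10287 FPKM.

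By a rule of likeness, the 5 genes of a mean of 5 FPKM or more whose centred log2(FPKM + 1) lay nearest to that of S100b over the 3 libraries were Efemp2, Snord89, Tubb6, Mir7027 and Timp1. Efemp2, an elastic fibre protein, was nearest at a distance of 0.0475, with 4.83, 10.3 and 7.13 FPKM. Timp1, the metalloproteinase inhibitor, stood at 4.63, 11.6 and 7.15 FPKM. Snord89 and Mir7027 are short RNAs whose FPKM rest on small gene lengths. With 3 libraries and 8435 candidate genes, such likeness is a description only.

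S100a4 (ENSMUSG00000001020, chromosome 3, 90603771 to 90606045, plus strand), a mesenchymal and myeloid S100 gene also named fibroblast-specific protein, was listed with only 4, 8 and 8 reads, or 0.396, 0.813 and 0.829 FPKM. Of its 584 exonic bases, 302 also belong to Gm42674, a gene model on the same strand that spans S100a3 and S100a4 (chromosome 3, 90601904 to 90605885). The shared parts are 90604997 to 90605152 and 90605740 to 90605885. Gm42674 has 446 exonic bases, all of which overlap other genes, and it had 0 reads in all 3 libraries. Among protein-coding genes of the table whose exonic bases are all shared on the same strand with other genes, 122 of 133 (91.7%) had 0 reads in the 3 libraries. Among those that share none, 22.9% of 20284 did. The S100a4 value therefore counts reads on a gene model of which 51.7% overlaps another, and whether reads in the shared bases were dropped was not tested. No other member shared an exonic base with a gene on the same strand. The level of S100a4 is uncertain, and its nearest genes by the rule of likeness (Rps12-ps9, Dolk, Gm8325, Dok1 and Ear6) rest on these few reads. At levels below 1 FPKM the 1 added before the log also shrinks its 2.09-fold range. Nearness by this rule therefore does not mean a like fold range, and Dok1 stood at 21.7, 27.7 and 27.8 FPKM.

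Whether the libraries differed beyond counting noise was asked with a chi-square test of reads per gene against the library totals, and p-values were adjusted by the Benjamini-Hochberg method over the 14011 genes whose mean reached 1 FPKM. All 9 members that passed this filter were called at an adjusted p below 0.05, while S100a4 was under the filter. The background was 38.7% of all tested genes, and 42.3% of those with at least the mean reads of S100b. This test compares libraries of 1 group, not conditions, and calls small differences where reads are many. The 9 members' median ratio of highest to lowest library was 1.15, the same as the 1.15 over all tested genes.

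The sizes of the differences varied between members. Fold values here are of the deposited FPKM, whereas the chi-square test set reads against the totals of the reads listed. S100b had the largest (2.29-fold, adjusted p = 4.89e-10 by the chi-square test), followed by S100a16 (1.35-fold, adjusted p = 0.00315) and S100a13 (1.32-fold, adjusted p = 5.72e-05). S100a8 and S100a9 differed by only 1.15-fold and 1.10-fold, with adjusted p = 5.62e-183 and 5.79e-54 in the same test. The remaining tested members lay between 1.10-fold for S100a6 and 1.18-fold for S100a1. Beyond counting noise the coefficient of variation was 4.69% for S100a9, 7.84% for S100a8, 5.12% for S100a11 and 39.6% for S100b, against a median of 4.97% over tested genes and of 4.29% over those with a mean of 5 FPKM or more. S100a9 thus lay below the first median and above the other. Of tested genes, 5.67% varied more than S100b by this measure and 51.6% more than S100a9.

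Of the 9 called members, 6 were highest in library 2 (S100a8, S100a9, S100a11, S100a13, S100a16 and S100b), 1 in library 1 (S100a1) and 2 in library 3 (S100a6 and S100a10). For S100a1, S100a6 and S100a10 the Poisson interval of the highest library overlapped that of library 2. Among all called genes 33.6% were highest in library 2. S100a8, S100a9 and S100b were called with any 1 library left out, S100a8 only narrowly without library 2 (adjusted p = 0.0448, chi-square test). Without library 1 or library 3 the calls of S100a1, S100a6 and S100a10 were lost, and without library 2 those of S100a11, S100a13 and S100a16, so that 6 of 9 remained in each case. The call of S100a6 was also lost when p-values were adjusted over all genes with reads (adjusted p = 0.0622), and that of S100a1 with the totals behind the deposited FPKM (adjusted p = 0.0654, chi-square test). For S100a8 the order of libraries 1 and 3 turned with the total used, from 6872 below 6907 FPKM to 0.484% above 0.478% of the reads listed.

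**Figure D3:**
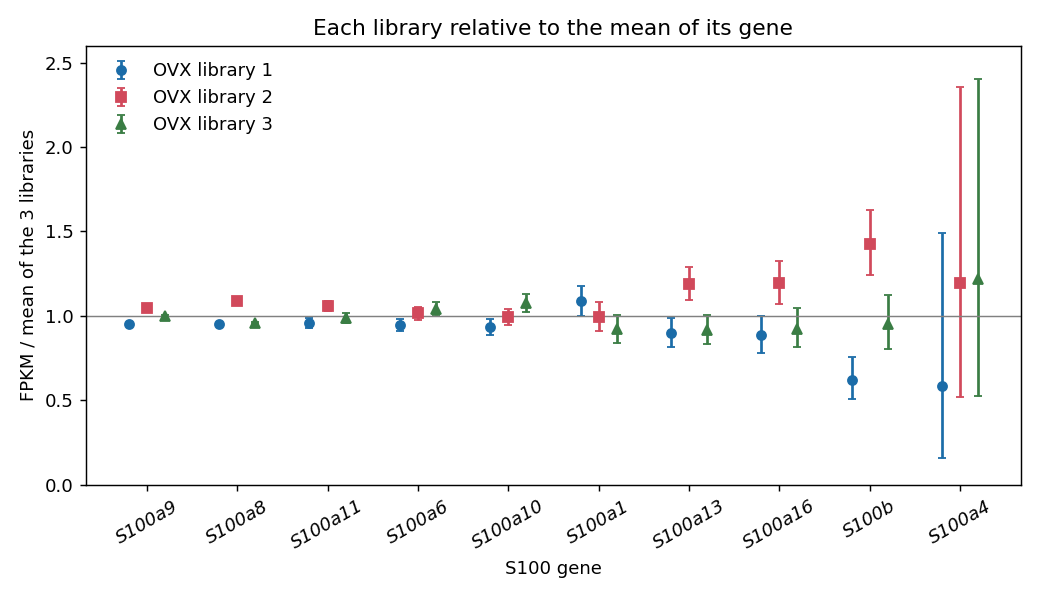
FPKM of each OVX library divided by the mean of the 3 libraries for the same gene, with exact Poisson 95% intervals. S100b in library 2 lies at 1.43 and in library 1 at 0.622 times its mean, whereas S100a9 stays between 0.954 and 1.05, and the wide S100a4 intervals rest on 4 to 8 reads.

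By position, 9 members and 5 other S100 genes lie on chromosome 3, and their levels did not follow their order along the chromosome. S100a1 to S100a9 span 185 kb. S100a8 and S100a9 point towards each other across 22.6 kb. S100a7a, whose listed gene ends 10.3 kb before S100a8, was at 0.210, 0.129 and 0.0439 FPKM from 5, 3 and 1 reads, against a mean of 7216 FPKM for S100a8. S100a5 ends 1.10 kb before S100a6 and had 1, 0 and 0 reads. S100a11 lies 2.82 Mb beyond S100a9, and S100a10 starts 34.6 kb after S100a11.

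**Figure D4:**
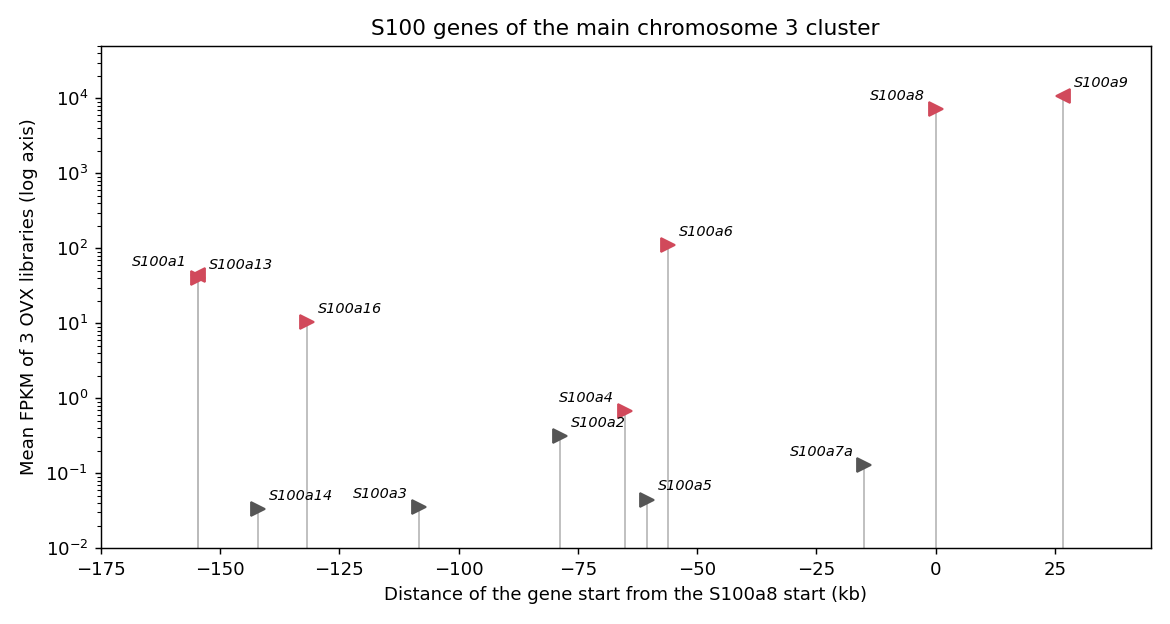
Mean FPKM of 3 OVX libraries (log axis) for the S100 genes of the main cluster, placed by the distance of the gene start from the S100a8 start in kb. Red marks are the members described here, grey marks other S100 genes, and arrowheads point along the strand, with S100a8 and S100a9 far above S100a7a.

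The other S100 genes were near the limit of detection. S100a3 had 1, 4 and 5 reads and S100a14 had 2, 1 and 0 reads in libraries 1, 2 and 3. S100a2 had 5 reads in library 2 and 0 in the others, and S100z, on chromosome 13, had 2, 0 and 2. S100g, which encodes the intestinal calcium carrier calbindin-D9k on the X chromosome, had 0 reads in all 3 libraries, where 3 reads would allow up to 0.378 FPKM. No difference between libraries can be read from such counts. S100pbp stood at 4.33 ± 0.322 FPKM (SD, n = 3).

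Binding partners and receptors of S100 proteins were read from a list of 30 genes, of which 25 passed 1 FPKM and 19 were called between libraries by the chi-square test, against 38.7% of all tested genes. The highest were Bsg (basigin, a surface receptor of S100a9) at 252 ± 9.50 FPKM and Anxa1 at 231 ± 6.35 FPKM (SD, n = 3). Among receptors, Tlr4 stood at 5.80, 5.80 and 5.38 FPKM, which did not pass the test, and Ager, the receptor for advanced glycation end products, at 2.87, 2.11 and 1.72 FPKM, which did (adjusted p = 0.00933, chi-square test). Cd36, a scavenger receptor of fatty acids, was at 40.7, 39.4 and 48.3 FPKM and Cd33, a sialic acid-binding receptor, at 26.7, 25.8 and 24.8 FPKM. Receptor levels were thus far below those of S100a8 and S100a9. Of the S100a13 cargo, Fgf1 stood at 1.69, 2.82 and 2.47 FPKM and Il1a at 3.34, 1.86 and 3.09 FPKM.

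The partners with the widest ranges were targets of S100a1 in muscle. Atp2a1, the calcium pump of fast muscle, stood at 99.3, 6.08 and 87.0 FPKM, Pygm, muscle glycogen phosphorylase, at 31.6, 4.35 and 22.2 FPKM, and Ryr1, the calcium release channel, at 3.56, 0.530 and 3.14 FPKM. All were lowest in library 2, as were the summed muscle markers that hold them. S100a1 itself was at 44.1 FPKM in that library, between its values in libraries 1 and 3, whose Poisson intervals both overlapped that of library 2. Plat, Plg, Ryr3, Syt1 and Erbb4 were below 1 FPKM.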

How the data were processed

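The values are FPKM as deposited by the authors, with a length for each gene. The build was mm10, and STAR, featureCounts, Trimmomatic and FastQC are named, per the submitters' processing notes; the sources used here do not give versions, strand setting or annotation. Library names of the labels matched 3 columns, all OVX, and another 3 columns, whose names match no label, were not used. The planned comparison of zingerone with OVX by limma was therefore not run. Members and gene lists were chosen with earlier results of these data known. Named genes were all members, the other S100 genes, the partner list, the markers and, for members whose highest library was at least 1.5 times the lowest, the 5 nearest genes. Which listed genes are printed was decided after their values were seen. So were the checks of exon overlap and of shared 50-base words, the search of the whole promoter window, GGGCGG, the CpG count, the ratio to neutrophil markers and the background among genes with at least the reads of S100b.

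Reads were recovered from FPKM and gene length; 100% of values came out whole to within 0.01 read, which gave 17017907, 16964740 and 16581579 reads. Intervals are exact Poisson at 95% and cover counting error only, since the reads are not independent molecules. A count of 0 allows up to 3 reads. Tables were read with Python 3.11.15, numpy 2.4.6, pandas 2.3.3 and scipy 1.17.1. Exon overlap and transcripts came from GENCODE M21, whose exonic length equalled the listed one for 97.9% of genes. The chi-square test was tested on simulated data.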

Additional observations from a re-analysis of the deposited data

How the results depend on the processing

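The count of called members was 9, and became 8 with no filter on low values. It was 9 when only genes averaging 5 FPKM or more were tested, and 9 with FPKM recomputed from the reads listed. Neither setting could drop a member by its level, since all 9 averaged more than 5 FPKM. The test itself uses reads, so recomputed FPKM could act only through the filter. The count was 8 with the totals behind the deposited FPKM (chosen after seeing the data) and 6 without any 1 library. The summed level of the 10 members, 18779 FPKM, was 18743 under median-of-ratios scaling and 18806 with recomputed FPKM. It ran from 18172 to 19218 without 1 library. The median-of-ratios factors of the deposited FPKM were 1.002 in each of libraries 1, 2 and 3. That scaling could therefore hardly move a level and is a weak check. Single members' means moved by less than 1 SD under these settings, which a mean of 3 cannot exceed when 1 value is left out. No paired analysis was possible because only 1 group could be tied to columns, and for the same reason no alternative of the planned zingerone comparison was run. S100a4 and the 7 further S100 genes had at most 8 reads in any library, too few to compare libraries, and why S100a4 has so few was not tested.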
